A study of Mus musculus with 6 samples.

Results

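Srpk3, Hdac9, Myl4, Myo1e, Rsph1, Whrn, Mmp14, Tmprss3, Egfl6 and Scd1 are 10 genes whose transcripts were scarcer in proB cells lacking zinc finger 1 of Ikaros (ZnF1) and more abundant in proB cells lacking finger 4 (ZnF4). They were picked by name for that pattern from the 22098 gene symbols of the expression table, of which 10943 averaged 1 RPKM or more and were compared. RPKM is a read number scaled to transcript length and to the size of the library. For each symbol the RefSeq transcript with the highest mean was used, and all 10 genes passed the filter on low values. Because the mutant levels themselves chose the genes, those levels are given here as a description without a test.

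The libraries came from bone marrow proB cells of C57BL/6 mice aged 6 to 7 weeks, sorted into Hardy fraction B (an earlier proB stage) and fraction C+C' (a later one, called fraction C here). Each fraction was profiled once in 3 genotypes: wt, Ikaros-ZnF1-/- and Ikaros-ZnF4-/-, called ZnF1 and ZnF4 mutants. All 6 libraries came from sorted cells and shared the age, while the sorted fraction differed as stated. The mutants are known as germline alleles of the Ikaros gene, so that other cells of the mice lacked the finger too. With 1 library per genotype and fraction there is no replicate spread within a group, and the labels do not say how many mice went into a library.

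Ikaros, encoded by Ikzf1, is a zinc finger DNA-binding protein that steers early lymphocyte development and acts both as an activator and as a repressor. Its middle fingers contact a core sequence of the GGGAA type, while the outer fingers of that domain, ZnF1 and ZnF4, modulate binding at subsets of sites. Most of the 10 genes are known from other tissues. Srpk3 and Myl4 are muscle genes, Rsph1 belongs to motile cilia, Whrn and Tmprss3 are deafness genes of the inner ear, Mmp14 and Egfl6 act on the extracellular matrix, and Scd1 makes monounsaturated fatty acids.

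RefSeq promoter windows running from 250 bases before to 50 bases after a transcription start (assembly GRCm38.p6) were matched for 8 of the 10 genes, as 10 windows, because Hdac9 and Tmprss3 have 2 each. They were searched on both strands for GGGAA (reverse complement TTCCC) and for the longer TGGGAA and TGGGAAT, each of which contains the shorter one. The 250 upstream bases of the 3 genes with a core match there are printed 5′ to 3′ on the gene's strand, with the match in capitals, to show where this core lies. They cover chrX:73774155-73774404, plus strand, for Srpk3, chr14:54431348-54431597, plus strand, for Mmp14, and chr9:70207100-70207349, plus strand, for Myo1e.
Srpk3: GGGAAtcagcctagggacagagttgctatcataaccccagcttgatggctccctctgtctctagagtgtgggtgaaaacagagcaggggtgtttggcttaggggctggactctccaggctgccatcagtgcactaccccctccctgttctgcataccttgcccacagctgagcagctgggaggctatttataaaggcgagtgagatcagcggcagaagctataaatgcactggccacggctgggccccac
Mmp14: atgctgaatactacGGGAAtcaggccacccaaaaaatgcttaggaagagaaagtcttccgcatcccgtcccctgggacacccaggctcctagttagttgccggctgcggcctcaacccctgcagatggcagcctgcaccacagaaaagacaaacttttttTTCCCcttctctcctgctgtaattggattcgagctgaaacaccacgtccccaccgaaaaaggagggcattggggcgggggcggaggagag
Myo1e: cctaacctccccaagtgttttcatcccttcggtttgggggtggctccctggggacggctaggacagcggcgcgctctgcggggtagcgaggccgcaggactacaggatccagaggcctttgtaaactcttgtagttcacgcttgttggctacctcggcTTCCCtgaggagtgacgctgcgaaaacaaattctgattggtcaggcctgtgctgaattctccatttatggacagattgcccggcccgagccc

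The Mmp14 window held 2 matches to the core and those of Srpk3 and Myo1e 1 each. Egfl6 and the second window of Hdac9 held 1 match each in the 50 bases after the start. In all, 5 of the 8 genes held a core match, against 65.5% of 27025 mouse genes with such a window. By window it was 5 of the 10, against 62.7% of 32851 mouse windows of this length. Neither TGGGAA, present in 25.6% of all windows, nor TGGGAAT, present in 4.66%, was found in a window of the 8 genes. The Srpk3 match begins at the first base of its window, so the base before it was not read. A match is a string of letters and not a binding site, and the absence of one says nothing of Ikaros binding elsewhere at the gene.

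Some properties of the libraries touch all values that follow. The B-lineage markers Cd79a, Vpreb1 and Pax5 were present in all 6 libraries, at 234.8 to 581.4, 89.2 to 239.4 and 91.9 to 306.6 RPKM. Levels within the list of 15 differed by genotype. Dntt was at 568.7 and 335.4 RPKM in wt fractions B and C but 18.7 and 25.7 in ZnF4. Rag2 was at 44.5 and 29.6 in wt but 18.1 and 14.4 in ZnF4. Il7r was at 110.2 and 96.2 in wt but 316.6 and 287.5 in ZnF4. In ZnF1 fraction C, 2 of the markers were at least 2-fold lower than in wt and 1 was higher. Pax5 was 2.45-fold and Ebf1 2.12-fold lower, and Ptprc was 2.41-fold higher. The ZnF1 fraction C library stood apart: 16 granulocyte and monocyte markers summed to 43575.2 RPKM there and to between 1034.5 and 3860.4 in the other libraries, and the erythroid markers to 6749.9 against 187.0 to 475.1. The ZnF4 fraction B library had less of these RNAs than wt: 16 of 16 granulocyte and monocyte, 11 of 14 NK and T and 8 of 11 plasmacytoid dendritic markers that passed the filter were at least 2-fold lower. Siglech, a plasmacytoid dendritic marker, was at 24.2 RPKM in wt fraction B and 0.1 in ZnF4 fraction B. The part of these cells in the levels of the 10 genes was not tested. All 4 mutant libraries had Xist listed at 0 and the Y-linked Eif2s3y present, whereas the wt libraries had Xist at 81.3 and 91.9 and Eif2s3y listed at 0. Sex and mutation therefore cannot be told apart against wt. Eif2s3y was at 34.4 and 36.7 RPKM in ZnF1 and at 55.1 and 53.8 in ZnF4. Read depth is unknown.

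In both fractions all 10 genes were at least 2-fold lower in the ZnF1 mutant and at least 2-fold higher in the ZnF4 mutant than in wt. Fold values are on the log2(RPKM + 1) scale, which understates the change of low genes. Over all 10943 genes, 2.21% were as much lower in ZnF1 fraction B, 7.39% in ZnF1 fraction C, 3.7% as much higher in ZnF4 fraction B and 3.55% in ZnF4 fraction C. Since these contrasts chose the genes, nothing is read from that difference. Where genotypes are said below not to overlap, the fractions are not replicates, and the share of all genes was not counted. Nothing is read from the lack of overlap either. In bulk RNA, fewer cells of a type and less RNA per cell cannot be told apart.

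**Figure D1:**
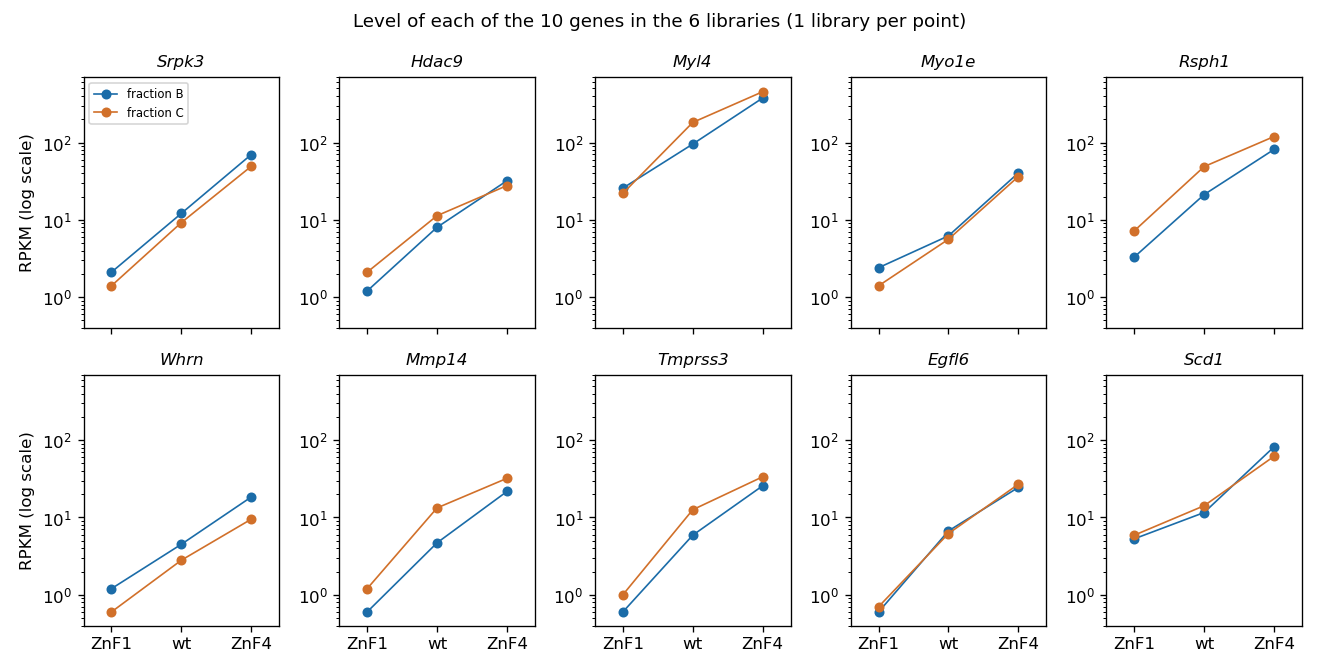
RPKM (log axis) of each of the 10 genes in the ZnF1 mutant, wt and the ZnF4 mutant; each point is 1 library and each line joins the libraries of 1 fraction. Every line climbs from ZnF1 through wt to ZnF4, for example from 2.1 through 12.1 to 69.8 RPKM for Srpk3 in fraction B.

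Srpk3 encodes a muscle kinase of SR splicing proteins and is a target of the Mef2 transcription factors. Its level was 12.1 RPKM in wt fraction B and 9.2 in wt fraction C, 2.1 and 1.4 in the ZnF1 mutant, and 69.8 and 49.2 in the ZnF4 mutant. Both ZnF1 libraries were below, and both ZnF4 libraries above, either wt library. Srpk3 was 4.23-fold lower in ZnF1 and 5.4-fold higher in ZnF4 in fraction B, and 4.25-fold lower and 4.92-fold higher in fraction C. Its smallest difference from wt among these 4 was the largest of any gene with this pattern. The 2 mutants stood 22.8-fold apart in fraction B and 20.9-fold apart in fraction C.

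Hdac9 encodes a class IIa histone deacetylase that restrains Mef2 factors. It was at 8.0 and 11.3 RPKM in wt fractions B and C, at 1.2 and 2.1 in the ZnF1 mutant, and at 32.0 and 27.7 in the ZnF4 mutant. The genotypes did not overlap. In fraction B the ZnF1 and ZnF4 mutants differed from wt by similar factors in opposite directions, 4.09-fold and 3.67-fold; in fraction C the ZnF4 difference was 2.33-fold and the ZnF1 difference 3.97-fold.

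Myl4 encodes the essential myosin light chain of atrial and embryonic muscle and was the most abundant of the 10 in each library. Its wt levels were 95.5 RPKM in fraction B and 181.9 in fraction C. The ZnF1 libraries had 25.7 and 22.0 RPKM and the ZnF4 libraries 376.2 and 453.8. Myl4 was thus lower in both ZnF1 libraries than in either wt library, at percentiles 72.7 and 67.8 of all genes compared, and reached percentiles 99.6 and 99.7 in ZnF4 fractions B and C. The ZnF1 difference was 3.61-fold in fraction B and 7.95-fold in fraction C, and the ZnF4 difference 3.91-fold and 2.49-fold.

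Myo1e encodes a class I unconventional myosin that links membranes to actin. It stood at 6.2 and 5.6 RPKM in wt, 2.4 and 1.4 in the ZnF1 mutant and 40.4 and 36.3 in the ZnF4 mutant. The ZnF4 libraries were set far apart and the ZnF1 libraries lay only a few RPKM below wt. Its ZnF4 differences of 5.75-fold and 5.65-fold exceeded its ZnF1 differences, which were 2.12-fold in fraction B and 2.75-fold in fraction C.

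Scd1, the stearoyl-CoA desaturase, had the same asymmetry. Its levels were 11.6 and 14.2 RPKM in wt, 5.3 and 5.9 in the ZnF1 mutant, and 82.1 and 61.9 in the ZnF4 mutant. No genotype overlapped another, but ZnF1 fraction B was just at the 2-fold line, 2.0-fold below wt, while ZnF4 fraction B was 6.6-fold above it. In fraction C the factors were 2.2 and 4.14.

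Rsph1 encodes a protein of the radial spoke head, which regulates the beat of motile cilia. It was at 21.2 RPKM in wt fraction B and 48.8 in wt fraction C, at 3.3 and 7.2 in the ZnF1 mutant and at 81.4 and 119.5 in the ZnF4 mutant. In each genotype fraction C was the higher, and the genotypes did not overlap. The ZnF1 difference was 5.16-fold in fraction B and 6.07-fold in fraction C, and the ZnF4 difference 3.71-fold and 2.42-fold.

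Whrn encodes whirlin, a PDZ scaffold of the hair-cell stereocilia. It was the least abundant of the 10 in wt and in the ZnF4 mutant. Its levels were 4.5 and 2.8 RPKM in wt, 1.2 and 0.6 in the ZnF1 mutant, and 18.4 and 9.5 in the ZnF4 mutant. Whrn was the lower in fraction C in every genotype, and the genotypes still did not overlap. It was 2.5-fold and 2.37-fold lower in ZnF1, and 3.53-fold and 2.76-fold higher in ZnF4.

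Tmprss3, a membrane-anchored serine protease, was at 5.9 and 12.6 RPKM in wt, 0.6 and 1.0 in the ZnF1 mutant, and 25.7 and 33.6 in the ZnF4 mutant. Mmp14, a membrane-anchored metalloproteinase that activates the precursor of Mmp2, was at 4.7 and 13.3 RPKM in wt, 0.6 and 1.2 in the ZnF1 mutant, and 21.7 and 32.1 in the ZnF4 mutant. These proteases thus showed closely similar sets of levels, near the lower end of the table in the ZnF1 mutant. Tmprss3 was 4.31-fold and 6.8-fold lower in ZnF1 and 3.87-fold and 2.54-fold higher in ZnF4. For Mmp14 the corresponding factors were 3.56, 6.5, 3.98 and 2.31.

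Egfl6 encodes a secreted matrix protein with EGF repeats. It was at 6.7 and 6.2 RPKM in wt, 0.6 and 0.7 in the ZnF1 mutant, and 24.5 and 26.9 in the ZnF4 mutant. The fractions of each genotype were close together and the genotypes did not overlap. Egfl6 was 4.81-fold and 4.24-fold lower in ZnF1 and 3.31-fold and 3.88-fold higher in ZnF4. Egfl6 and Srpk3 lie on chromosome X, where the sex difference from wt noted above could bear on a level; its part was not tested. Between the mutants, which both had Xist listed at 0, Egfl6 stood 15.9-fold apart in fraction B and 16.4-fold in fraction C.

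Set beside all genes, the median rank of the 10 was at percentile 36.2 of the genes compared in wt fraction B and 49.4 in wt fraction C. In the ZnF1 mutant it was at 9.27 and 6.61, and in the ZnF4 mutant at 84.2 and 81.5. The 10 were not alike: Myl4 was above the median of all genes in each library, and Whrn was the 1 gene below it in ZnF4 fraction C. In ZnF1 fraction B 3 of the 10 were under 1 RPKM and in ZnF1 fraction C 2 were, so the pseudocount holds down their folds most.

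The median difference of the 10 from wt was -1.94 in ZnF1 fraction B and -2.08 in ZnF1 fraction C on the log2 scale, where the medians of all genes were 0.04 and -0.16. It was 1.96 in ZnF4 fraction B and 1.41 in ZnF4 fraction C, where those of all genes were -0.09 and -0.05. Between the mutants all 10 genes were at least 2-fold higher in ZnF4, against 4.95% of all genes in fraction B and 7.41% in fraction C. Of the 10, 0 were lower, against 10.9% and 14.1%. The choice of the genes fixed this outcome too, and nothing is read from it. The median gap between the mutants was 14.6-fold in fraction B and 15.3-fold in fraction C.

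**Figure D2:**
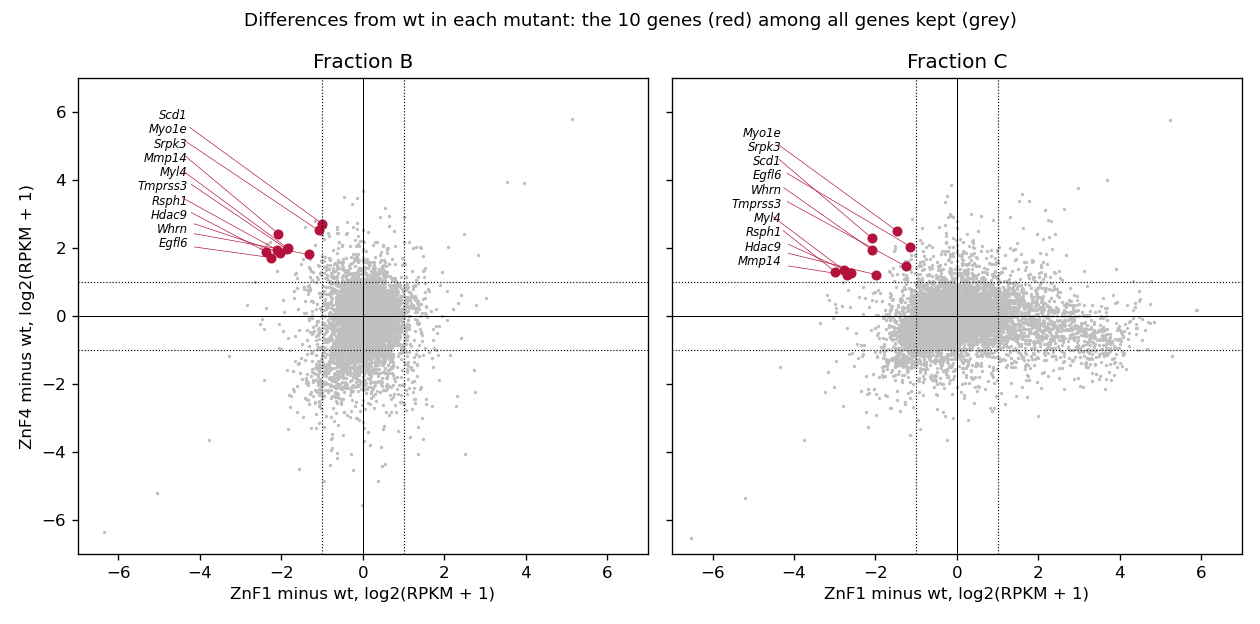
Difference of the ZnF1 mutant from wt (horizontal axis) and of the ZnF4 mutant from wt (vertical axis), both in log2(RPKM + 1), for fraction B on the left and fraction C on the right; grey points are the 10943 genes compared, red points the 10 genes and dotted lines mark 2-fold. All red points lie in the upper left corner, from Mmp14 at 1.21 above wt in ZnF4 fraction C to Scd1 at 2.72 in fraction B; both axes subtract the same wt library.

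Where wt lay between the mutants differed among the genes. The share of the log2 distance from ZnF1 to ZnF4 that lay between ZnF1 and wt was smallest for Scd1, at 26.9% in fraction B and 35.7% in fraction C, and for Myo1e, at 30.0% and 36.9%. For these genes wt was nearer the ZnF1 level. Srpk3 stood near the middle in both fractions, at 46.1% and 47.6%. In fraction C, wt Myl4 lay 69.5% of the way up, Mmp14 69.0%, Tmprss3 67.2%, Rsph1 67.1% and Hdac9 61.9%, so that wt was nearer the ZnF4 level. In fraction B these 5 lay between 47.9% and 55.6%.

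The ZnF1 fraction C levels came from the library with the granulocyte and erythroid RNA, whose part in them was not tested. In fraction B the ZnF1 library had 1686.5 RPKM of granulocyte and monocyte markers against 3860.4 in wt. Centring each library on its B-lineage markers left 8 of the 10 at least 2-fold lower in ZnF1 fraction C and all 10 in ZnF1 fraction B. All 10 stayed at least 2-fold higher in both ZnF4 libraries. The shares of all genes under that centring are not given, and the markers themselves differed by genotype. Because these contrasts chose the genes, nothing is read from the counts. That centring moved the median of all genes between ZnF1 and wt in fraction C from -0.16 to 0.27.

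Markers of the tissues in which these genes are best known were read beside them. Of 15 skeletal and heart muscle markers, 7 were listed at 0 in all libraries, and the summed level of the list ran from 10.8 to 15.0 RPKM in wt and ZnF1 libraries and was 27.3 and 22.9 in ZnF4 fractions B and C. The fast troponin Tnnt3 was highest in ZnF4, at 6.2 and 4.4 RPKM there against 0.3 to 1.4 elsewhere. Tnni2, a fast troponin too, had the order of the 10 genes, with 3.9 and 3.4 RPKM in wt, 1.3 and 2.3 in ZnF1, and 9.4 and 7.5 in ZnF4. Of the 12 ciliated and inner ear markers in the table, 4 were listed at 0 in all libraries, and the list's sum was 23.8 to 43.6 RPKM, with no higher level in ZnF4 than in wt fraction B. The largest part of that sum was Myo7a, an unconventional myosin, at 29.7 and 25.1 RPKM in wt, 24.0 and 10.4 in ZnF1, and 26.7 and 15.9 in ZnF4. The stromal, bone and fat cell list summed to 53.3 to 82.6 RPKM, most of it Pecam1, which lymphoid progenitors also express. Among its matrix genes, Col1a1 was highest in wt fraction C, at 4.6 RPKM. What part any of these cells had in the 10 genes' levels was not tested.

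Among all genes compared, 21 (0.192%) were at least 2-fold lower in ZnF1 and at least 2-fold higher in ZnF4 in both fractions, and the 10 are among them. The mirror pattern, higher in ZnF1 and lower in ZnF4, was met by 10 genes, or 0.0914%. Without the ZnF1 fraction C library, 1 of the conditions drops out, and the counts were 38 and 34. Among the 10, Scd1 and Myo1e were nearest the 2-fold line, with smallest differences of 1.0 and 1.08 on the log2 scale. Just outside was Hspa2, a chaperone of the Hsp70 family, with 0.96; its levels in wt, ZnF1 and ZnF4 fraction B were 15.7, 7.6 and 39.2 RPKM.

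The other 11 genes with the pattern included the lymphocyte genes Ikzf3 and Cd72. Ikzf3 (Aiolos, a family member that increases as B cells mature) was at 61.9 and 51.4 RPKM in wt fractions B and C, 11.9 and 17.4 in ZnF1, and 282.7 and 205.4 in ZnF4. Cd72, a B-cell surface coreceptor with an inhibitory tail, was at 255.9 and 243.9 RPKM in wt, 88.9 and 81.1 in ZnF1, and 739.4 and 659.3 in ZnF4. Inppl1, an inositol phosphatase related to Inpp5d, was at 8.0 and 13.5 RPKM in wt, 1.0 and 1.1 in ZnF1, and 29.3 and 28.4 in ZnF4. The 10 genes thus shared the pattern with Ikzf3 and Cd72, which have known B-cell roles. The rest were Amigo1, Cpm, Slc12a3, Gpr12, Kif19a, Magee2, Fam129c and, named after its values were seen, Col5a3.

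By Pearson correlation over the 6 libraries, the genes most like the mean profile of the 10 were Cdadc1 (r = 0.998), Magee2 (0.996), Plcxd2 (0.994), Cd72 (0.994) and Rhoq (0.994). The 10 genes themselves had r between 0.949 for Whrn and 0.995 for Egfl6, each being part of that mean. These 6 libraries share 3 genotypes and 2 fractions, and the correlations are a description. Cdadc1 had that shape at a small size, with a range of 0.54 on the log2 scale, whereas Cd72 ranged over 3.17.

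In the Ikaros family itself, Ikzf1 was at 150.3 and 169.4 RPKM in wt, 181.5 and 154.1 in ZnF1, and 431.6 and 425.1 in ZnF4 fractions B and C. It was higher in ZnF4 and, unlike the 10 genes, not lower by 2-fold in ZnF1. Ikzf5 lay between 3.1 and 5.4 RPKM in all 6 libraries. A whole-transcript value of Ikzf1 does not show the removed finger and is no check of the labels.

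Alternative transcripts were listed for 2 of the 10 genes. Each of the 5 other Whrn transcripts had its highest level in ZnF4 fraction B, from 0.7 to 3.8 RPKM, against 0.2 to 0.9 in wt fraction B. The other Tmprss3 transcript did not share the ZnF4 level: it was at 0.5 and 0.7 RPKM in wt, 0.0 and 0.1 in ZnF1, and 0.2 in both ZnF4 libraries. These transcripts share exons with the ones used, and the division of shared reads among them is unknown.

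The levels of genes next to the 10 were also read. The 2 nearest protein-coding RefSeq genes on each side gave 37 other genes, of which 25 passed the filter on low values, and 0 of these met the 2-fold rule, against 0.192% of all genes. Of the 25, 4 lay below wt in ZnF1 and above it in ZnF4 in both fractions by any amount, namely Idh3g, Snx13, Sec31b and Lrp10, against 8.72% of all genes, while 7.79% of all genes had the reverse order.

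Tmprss3 and Rsph1 are near neighbours on chromosome 17 with Ubash3a between them, and both lie on the strand opposite to Ubash3a. Ubash3a, a suppressor of lymphocyte antigen receptor signalling, was at 19.3 and 37.1 RPKM in wt, 5.3 and 10.2 in ZnF1, and 3.4 and 6.6 in ZnF4. The gene in the middle was thus low in both mutants, and in ZnF4 the genes on either side of it were high. In ZnF4 fraction B it was 4.61-fold below wt while Tmprss3 was 3.87-fold and Rsph1 3.71-fold above. Slc37a1, on the far side of Rsph1, stayed at 4.8 to 9.0 RPKM in all 6 libraries.

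**Figure D3:**
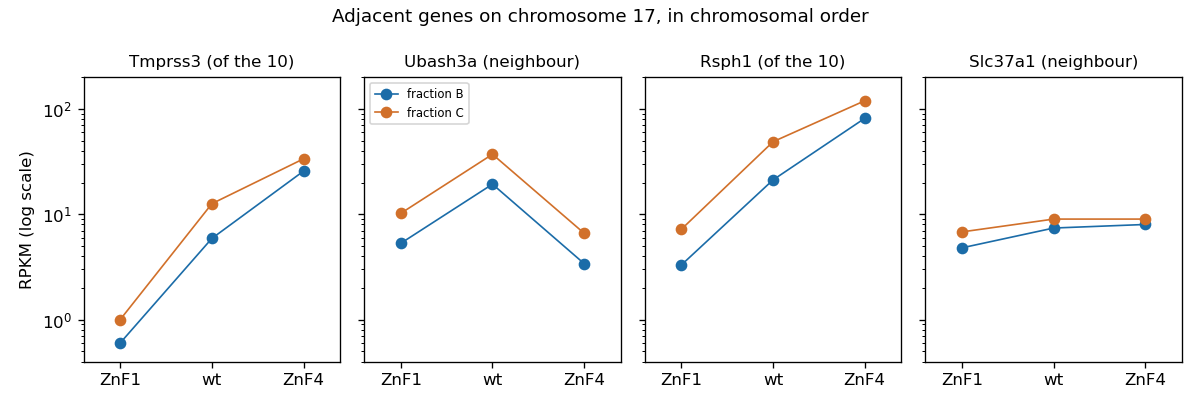
RPKM (log axis) of Tmprss3, Ubash3a, Rsph1 and Slc37a1, neighbours on chromosome 17, in the ZnF1 mutant, wt and the ZnF4 mutant; each point is 1 library and lines join the libraries of 1 fraction. Tmprss3 and Rsph1 are highest in ZnF4, Ubash3a is highest in wt at 19.3 and 37.1 RPKM, and Slc37a1 stays within 4.8 to 9.0 RPKM.

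The gene bodies of Ubash3a and Rsph1 overlap, but their exons do not in the GENCODE annotation of GRCm38. The same holds for Myl4 and Cdc27, a subunit of the anaphase-promoting complex, which was at 21.8 and 25.5 RPKM in wt, 16.4 and 13.9 in ZnF1, and 15.7 and 23.1 in ZnF4. Cdc27 did not share the levels of Myl4. Next to Scd1, its paralog Scd2 was at 42.4 and 40.4 RPKM in wt, 47.7 and 24.2 in ZnF1, and 49.2 and 47.8 in ZnF4, without the ZnF4 level of Scd1.

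The families and partners of the 10 genes were followed in 10 lists, with 73 genes compared. None met the 2-fold rule, which 0.192% of all genes met, so that none is near that share. In ZnF1 fraction B 3 of the 73 were at least 2-fold higher and 4 lower (4.11% and 5.48%, against 2.07% and 2.21% of all genes), and in ZnF1 fraction C 11 and 9 (15.1% and 12.3%, against 12.6% and 7.39%). In ZnF4 fraction B 1 was higher and 13 lower (1.37% and 17.8%, against 3.7% and 9.81%), and in ZnF4 fraction C 2 and 10 (2.74% and 13.7%, against 3.55% and 6.12%). In both fractions at once, 0 of the 73 were at least 2-fold higher and 3 lower in ZnF1, against 0.758% and 0.804% of all genes, and 1 was higher and 9 lower in ZnF4, against 2.59% and 4.73%. Their median differences from wt were between -0.17 and 0.06 on the log2 scale.

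Some relatives had the order of the 10 genes without meeting the rule, an order that 8.72% of all genes had at any size. Hdac8, Mef2d, Clk1 and Clk4 had it by less than 2-fold from wt in each mutant library. Rsph9, a partner of Rsph1 in the radial spoke head, had it by more in ZnF1. Rsph9 was at 25.8 and 45.6 RPKM in wt, 9.9 and 6.6 in ZnF1, and 44.5 and 55.6 in ZnF4. It was low in both ZnF1 libraries, by 2.46-fold and 6.13-fold, and above wt by less than 2-fold in ZnF4. Hdac5, a class IIa deacetylase like Hdac9, had the order too, by less than 2-fold from wt in each mutant library. Its levels were 56.0 and 54.2 RPKM in wt, 32.9 and 27.7 in ZnF1, and 110.8 and 82.8 in ZnF4.

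Other relatives went the opposite way to the 10 genes in ZnF4. Myl10, a regulatory myosin light chain, was at 51.2 and 37.1 RPKM in wt, 50.2 and 16.2 in ZnF1, and 0.1 and 2.4 in ZnF4, where Myl4 was at its highest. Egfl7, an endothelial relative of Egfl6, was at 28.9 and 25.9 RPKM in wt, 75.2 and 24.1 in ZnF1, and 0.8 and 2.4 in ZnF4. Tnnt2, the cardiac troponin T, was low in both mutants, with 4.9 and 8.7 RPKM in wt, 0.1 and 0.2 in ZnF1, and 0.6 and 1.3 in ZnF4. Myl4, Myl10 and Tnnt2 thus had different orders of the genotypes.

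The step from fraction B to fraction C was not used to choose the 10 genes, and it is the only comparison of them that was tested. In wt 2 of the 10 were at least 2-fold higher in fraction C, Mmp14 by 2.51-fold and Rsph1 by 2.24-fold, against 0.338% of all genes, and 0 were lower, against 1.01%. Tmprss3 and Myl4 stood just under the line, at 1.97-fold and 1.9-fold. In the ZnF1 mutant, where 10.1% of all genes were at least 2-fold higher and 4.16% lower, and in the ZnF4 mutant, where 2.76% and 0.585% were, none of the 10 passed 2-fold. Whether the step differs between the genotypes cannot be tested with 1 library of each.

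limma was fitted to log2(RPKM + 1) of all 10943 genes with a term for genotype and one for fraction, which leaves 2 residual degrees of freedom. The fraction estimate was 0.88 ± 0.17 (SE) for Rsph1, and all 3 genotypes had the higher level in fraction C. For Mmp14 it was 0.78 ± 0.24 and for Tmprss3 0.56 ± 0.20, again higher in fraction C in 3 of 3 genotypes. Whrn, at -0.63 ± 0.19, and Srpk3, at -0.41 ± 0.14, were lower in fraction C in 3 of 3.

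After Benjamini-Hochberg adjustment over all genes none of these passed: each had an adjusted p of 0.854 by limma, which was also the smallest over all 10943 genes. The 5 named so far were the ones with an unadjusted p under 0.05, a mark reached by 201 of all genes in the higher direction (1.84%) and by 310 in the lower (2.83%). Myo1e, at -0.26 ± 0.16, was lower in fraction C in 3 of 3 genotypes but missed that mark. Myl4 (0.33 ± 0.26), Hdac9 (0.25 ± 0.21), Egfl6 (0.04 ± 0.16) and Scd1 (0.00 ± 0.19) were higher in fraction C in 2 of 3 genotypes. The fraction steps of the 10 genes therefore had no common direction. All were smaller than the gaps between the mutants, for which the genes had been chosen.

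**Figure D4:**
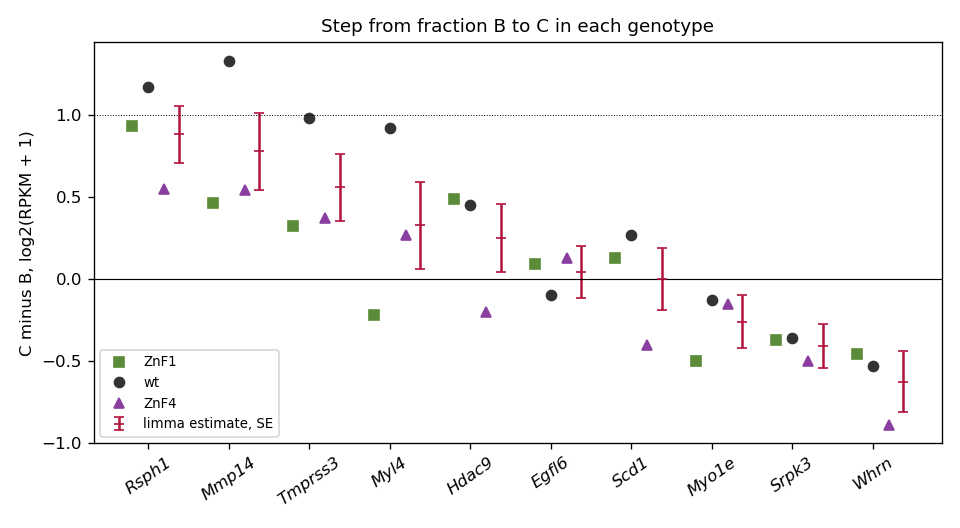
Difference of fraction C from fraction B in log2(RPKM + 1) for each of the 10 genes; points are the 3 genotypes, 1 pair of libraries each, and the remaining symbol is the limma estimate with its standard error. Rsph1, Mmp14 and Tmprss3 lie above 0 in every genotype, Whrn and Srpk3 below 0, and Myl4 is at 0.92 in wt but at -0.22 in ZnF1.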

How the data were processed

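RNA-seq of 6 libraries of sorted mouse proB cells, 1 per genotype (wt, Ikaros-ZnF1-/-, Ikaros-ZnF4-/-) and Hardy fraction (B, C+C'), was used as 1 deposited table of RPKM values, rounded by the authors to 0.1. Per the labels' protocols, total RNA was prepared with the Illumina TruSeq kit. The submitters' processing notes name TopHat, bedtools and mm9; no source used here gives versions, annotation or strand handling. Whole reads could not be recovered from the RPKM steps, so depth and counting error are unknown.

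Of 26532 entries, 1 had no gene name and was left out. For each of 22098 symbols the transcript with the highest mean RPKM was kept (3305 symbols had several), then genes averaging 1 RPKM or more, which left 10943. Differences are on log2(RPKM + 1), and a fold of 2 was used for counts. The fraction step was tested with limma 3.58.1 (R 4.3.3; lmFit, eBayes with trend, two-sided, Benjamini-Hochberg over all genes, threshold 0.05), a script checked on simulated data. Promoters are from RefSeq (GRCm38.p6); the table's own build differs, so other coordinates are not printed.

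The 10 genes and all gene lists were chosen with earlier results of these data known. Other genes were named by rule: up to 10 with the same pattern, ranked by their smallest fold, the 5 most correlated with the mean profile, the 2 neighbours on each side, the Ikaros family, and list members at the highest level or at least 2-fold apart. The lists of macrophage, NK and T, and plasmacytoid dendritic cell markers summed to 10.3 to 215.7, 44.7 to 159.4 and 174.3 to 359.1 RPKM. Alternatives varied the pseudocount, filter, transcript choice, centring, fit and libraries.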

Additional observations from a re-analysis of the deposited data

How the results depend on the processing

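Over the alternatives, 0 of 280 differences of the 10 genes from wt changed direction. A pseudocount of 4 RPKM left 6 of the 10 with the 2-fold pattern in both fractions (6 at least 2-fold lower in ZnF1 fraction B), since it holds down low genes. Among all genes the pattern was met by 33 with a pseudocount of 0.25, 9 with 4, 13 after centring on B-lineage markers and 38 without the ZnF1 fraction C library, an alternative added after seeing the data. The mirror pattern gave 19, 2 and, without that library, 34. Steps of 2-fold from fraction B to C were counted under the alternatives for the 10 genes only, without shares of all genes. Those at least 2-fold higher in wt fraction C numbered 1 with a pseudocount of 4, 3 with 0.25 and 4 after B-lineage centring. In ZnF1 they were 1 with 0.25 and 3 after that centring. In ZnF4, 1 of the 10 was at least 2-fold lower when transcripts were summed or either centring was used.

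Under limma 0 genes passed, except 11 with no filter and 1 after B-lineage centring, and none of these was among the 10; leaving out each library (its genotype, left with 1, then adds nothing to the estimate) gave 0 to 0, with 116 to 2843 genes at an unadjusted p under 0.05. B-lineage centring turned some steps: Srpk3 0.3, Myl4 0.45, Myo1e 0.17 and Whrn 0.21 in ZnF1, Myl4 -0.05 and Egfl6 -0.19 in ZnF4, and Myo1e 0.01 and Egfl6 0.04 in wt. The limma estimate of Scd1 became -0.02 with a pseudocount of 4, -0.06 after median centring and -0.14 to -0.07 without a wt or ZnF1 library (0.20 without a ZnF4 library); that of Egfl6 became -0.02 after median centring and -0.00 without either ZnF4 library (up to 0.11 without another). Beyond what the settings' construction shows, the cause was not tested. No paired analysis was possible because the labels carry no replicate numbers; the genotype term links the fractions, and without it (no replicate block) 0 genes passed.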
